A study of Mus musculus with 6 samples.

Results

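Osteoblast precursor cells given dexamethasone together with vesicles of endothelial progenitor cells (EPC-EVs) were compared with cells given dexamethasone alone, across all genes counted. The 4 libraries of these 2 treatments were taken from the 6 of the series by their treatment labels, 2 a side. The other 2 libraries, from cells given 100 µL PBS, serve here as a control level and entered only 1 alternative fit. Every library holds RNA of MC3T3-E1 Subclone 14 cells, a clonal mouse line from calvaria, kept in 1640 medium. Both sides received 10 µM dexamethasone, a synthetic glucocorticoid, for 72 h by the sample labels, and 1 side received 100 µg EPC-EVs with it. The design text of the series gives 48 h and calls the cells fibroblasts, which differs from the labels of the samples used here. The EPCs were grown from the bone marrow of male Kunming mice, so the vesicles came from a different mouse stock than the cells. No library with EPC-EVs but without dexamethasone was analysed here, so an effect of vesicles as such and an effect on the steroid response cannot be told apart.

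Glucocorticoids bind a nuclear receptor that raises genes such as Tsc22d3 and Dusp1 and lowers inflammatory genes driven by NF-kB, and long exposure slows the bone formation of osteoblasts. Osteoblasts secrete type I collagen, fold and crosslink it, and mineralize it with the help of phosphatases and small acidic proteins. Vesicles bring proteins, lipids, sterols and RNA into the cells that take them up, and cells sense sterols and fatty acids through the SREBP transcription factors.

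EPC-EVs given with dexamethasone went with wide differences in messenger RNA. Of 13556 genes tested, 2832 were called higher (20.9%) and 2565 lower (18.9%), 39.8% in all, at an edgeR adjusted p below 0.05. These shares stand for comparison with the counts of the gene lists below that come from the same fit. With a trend on GC content and gene length removed, 2106 genes were called higher and 2115 lower of 13544 tested. Fits without 1 library also called fewer genes, so list counts from those fits are not to be set against these shares. Calls were mostly upward among genes of sterol and fatty acid synthesis, collagens, contractile fibres and histones. They were mostly downward among NF-kB inflammatory, chemokine, hypoxia and mitochondrially encoded genes. Interferon-stimulated genes counted 5 higher and 5 lower of 25, and antigen presentation genes 4 higher and 1 lower of 11. The osteoblast transcription factor Runx2 was not called. In RNA from whole cultures, fewer cells of a type and less RNA per cell cannot be told apart. The study calls the 2 libraries of a side biological replicates without saying whether they came from separate cultures, so the spread behind the p-values may be in part technical.

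The sizes of the differences were spread widely around a median log2 fold change of 0.01. Among called genes, 1694 rose and 1482 fell by more than 1 log2 unit, 440 rose and 515 fell by more than 2, and 69 rose and 137 fell by more than 4. Protein-coding genes made up 2692 of the genes called higher and 2309 of those called lower, and 11661 of the 13556 genes tested. Every called gene whose values follow had both EPC-EV libraries on the same side of both dexamethasone libraries. Leaving out 1 library at a time gave between 3250 and 4813 calls, of which 3155 to 4415 were also called with all 4 libraries, fewest without dexamethasone replicate 2. In such a fit 1 group holds 1 library, so the spread of a gene comes from the other group and from moderation across genes. A gene called only there is given with its log2 fold change and no p-value.

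**Figure D1:**
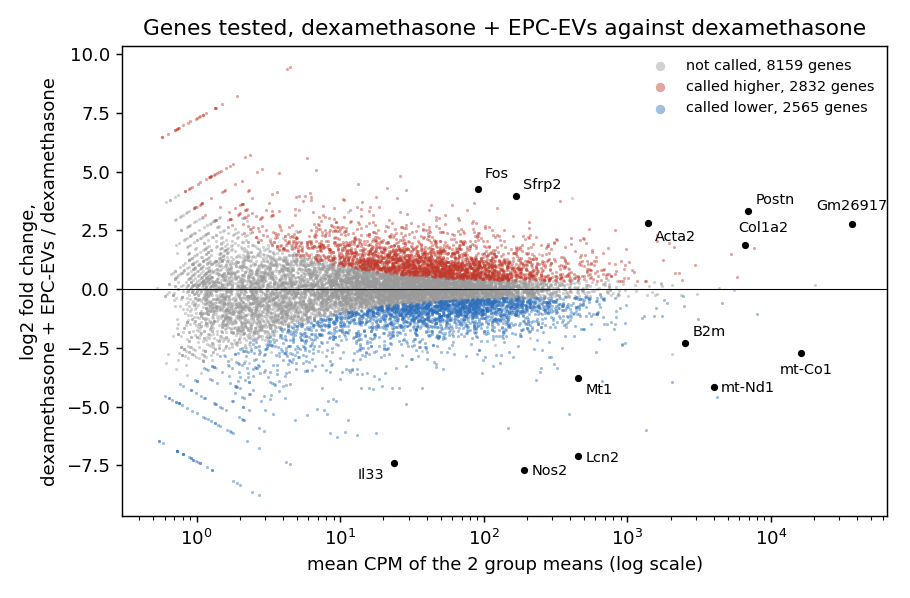
Log2 fold change of EPC-EVs with dexamethasone against dexamethasone for each gene tested, against its mean CPM of the 2 groups on a log scale. Genes called higher numbered 2832 and genes called lower 2565 of 13556.

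The 4 libraries differed in what they were made of. Mitochondrially encoded genes took 5.55% and 5.78% of counts with dexamethasone alone, 0.465% and 0.727% with EPC-EVs added, and 7.46% and 8.62% in control. The noncoding RNA Gm26917 took 1.14% and 0.788% with dexamethasone alone, 5.88% and 6.69% with EPC-EVs added, and 0.606% and 0.252% in control. Malat1, a nuclear noncoding RNA, moved from 0.0584% and 0.0685% to 0.259% and 0.245%. Protein-coding genes fell from 97.3% and 97.5% to 92.5% and 91.7% of counts. The EPC-EV libraries were also about as deep as both dexamethasone libraries added up, with 12864009 and 13182014 counts against 6583735 and 6575094.

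Fold changes moved with the GC content of the genes. In the group of genes with the lowest GC content, 28.3% to 43.0%, the median log2 fold change was -0.72, with 82 genes called higher and 1118 lower. In the group with the highest, 55.0% to 78.3%, the median was 0.72, with 1259 higher and 135 lower. With a trend on GC content and gene length removed, 4221 genes were called, 2106 higher and 2115 lower, and 3149 genes were called in both fits, 14 of them in opposite directions. Of the 5394 called genes compared, 314 changed sign. Whether the treatment or the handling of the libraries made the trend was not tested, so counts of calls with the trend removed stand beside the gene groups below.

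**Figure D2:**
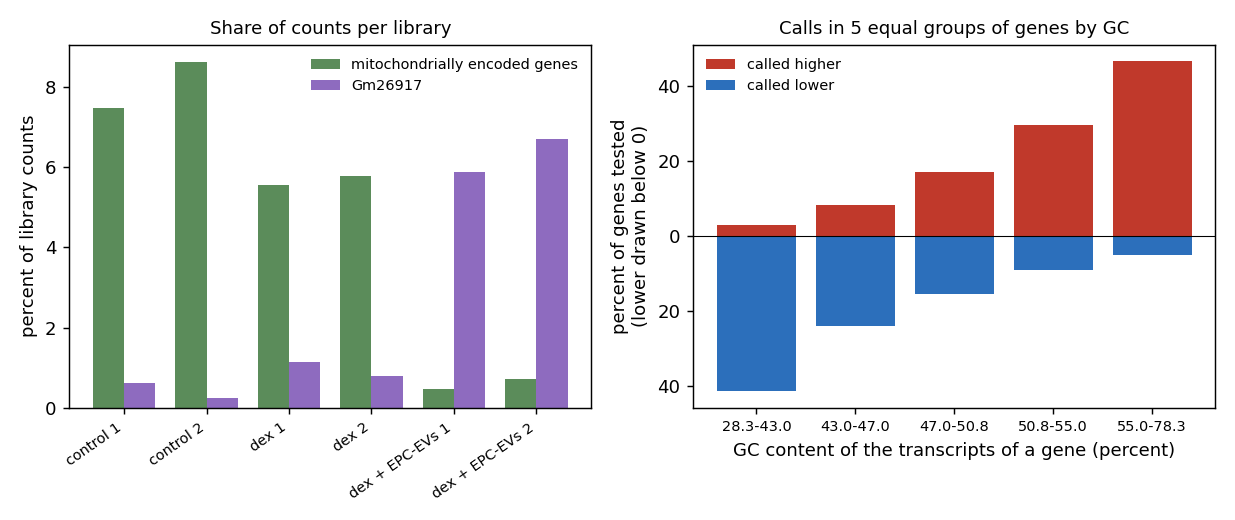
Percent of counts from mitochondrially encoded genes and Gm26917 in each library, and percent of tested genes called in 5 groups by GC content. In the lowest group 3.03% were called higher and 41.3% lower, and in the highest 46.5% and 4.98%.

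Markers of the labelled cell type were mixed. Pairs set against each other give the dexamethasone libraries first. Genes of stromal and osteoblast lineage summed to 9694 and 10463 CPM with dexamethasone alone and 25871 and 21354 CPM with EPC-EVs added, with all 11 listed genes analysed. Col1a2 was highest by CPM in these libraries except dexamethasone replicate 2, where Col1a1 was higher. Runx2 had 152 and 166 CPM with dexamethasone alone and 189 and 183 CPM with EPC-EVs added, with all 4 libraries in a narrow band (log2 fold change 0.18, edgeR adjusted p = 0.311). Alpl, the alkaline phosphatase of mineralizing osteoblasts, was close to absent at 0.728 and 0 CPM with dexamethasone alone and 1.35 and 0.471 CPM with EPC-EVs added, and 1.79 and 3.18 CPM in control. Ibsp, Sost and Phospho1 were too low to test. Stromal genes counted 3 higher and 2 lower of 10 tested, and 4 higher and 3 lower with the trend removed (median 0.28). Thy1 went from 175 and 197 to 117 and 92.4 CPM and Prrx1 from 1852 and 2119 to 1230.5 and 1139 CPM, both lower, while Pdgfra was not called at 354 and 348 CPM with dexamethasone alone and 404 and 549.6 CPM with EPC-EVs added. Thy1 and Prrx1 stood at log2 fold changes of -1.44 and -0.35 after trend removal, from -0.87 and -0.79. Pdgfra had a log2 fold change of 0.61 without EPC-EV replicate 1. Pdgfra was called higher after trend removal (0.48, edgeR adjusted p = 0.0254). Without EPC-EV replicate 1 the median of the stromal genes changed sign, from 0.29 to -0.04.

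Markers of other cell types ranged from 0 counts to levels above that of Runx2. Of 16 endothelial and progenitor markers, 11 were analysed and 7 tested, summing to 491 and 495 CPM with dexamethasone alone and 424 and 343 CPM with EPC-EVs added. Cd34 was the highest of them by CPM, Tek and Prom1 had 0 counts in all 4 libraries, and Cdh5 had 1 count in dexamethasone replicate 2 only. Cd34 had 359 and 369 CPM with dexamethasone alone and 289 and 239 CPM with EPC-EVs added, lower in both EPC-EV libraries (log2 fold change -0.51). Endothelial markers counted 0 higher and 1 lower of 7, and 0 higher and 0 lower with the trend removed (median -0.24). Haematopoietic markers had 9 of 14 analysed and summed to 44.0 and 54.8 against 69.0 and 105.6 CPM, with Spi1 at 0 throughout. Cd74 led them by CPM over the libraries together. They had 1 called higher and 0 lower of 7 tested, and 1 higher and 1 lower with the trend removed (median 0.24). Cd14 was the gene called higher before trend removal, at 3.06 and 7.21 against 24.2 and 33.4 CPM (log2 fold change 2.44, edgeR adjusted p = 0.000537). It was above Cd74 in both EPC-EV libraries. Csf1r stood at 2.91 and 1.18 CPM with dexamethasone alone and 4.44 and 36.97 CPM with EPC-EVs added, high in 1 EPC-EV library only, and was not called. No marker of red cells was analysed of 6 listed. Osteoclast markers had 5 of 8 analysed and summed to 145.6 and 183.9 against 137.7 and 130.5 CPM, led by Nfatc1, with Ocstamp at 10 counts in dexamethasone replicate 2 and 0 elsewhere. Of 3 osteoclast markers tested 1 was higher and 1 lower, and 0 higher and 2 lower with the trend removed (median -0.78). Cd34 was not called after trend removal (-0.05, edgeR adjusted p = 0.792), without dexamethasone replicate 1 (-0.51, edgeR adjusted p = 0.0859) and without dexamethasone replicate 2 (-0.49, edgeR adjusted p = 0.106). Csf1r had a log2 fold change of 4.13 without EPC-EV replicate 1. Whether any of these values came from cells of another type was not tested.

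Muscle-like markers were called in both directions. They counted 2 higher and 2 lower of 7 tested, 28.6% each beside the 20.9% and 18.9% of all genes tested (median 0.31). With the trend removed they counted 2 higher and 3 lower (median -0.37). Pericyte and smooth muscle markers had 8 of 10 analysed and summed to 813 and 751 CPM with dexamethasone alone and 3506 and 3536 CPM with EPC-EVs added, led by Acta2, with Myh11 at 6 counts in dexamethasone replicate 2, 1 in EPC-EV replicate 1 and 0 elsewhere. Pdgfrb rose from 218 and 198 to 747 and 906 CPM, while Rgs5 fell from 29.7 and 22.4 to 0.317 and 0.392 CPM. Chondrocyte markers had 7 of 9 analysed, led by Sox9, and summed to 365 and 300.2 against 242 and 251 CPM, and Sox5 fell from 26.5 and 31.7 to 11.7 and 7.93 CPM. Of 4 chondrocyte markers tested 2 were lower, and 0 higher and 2 lower with the trend removed (median -0.89). Adipocyte markers had 3 of 7 analysed and summed to 9.61 and 2.21 against 0.713 and 0.157 CPM, nearly all Fabp4, the only one tested (log2 fold change -3.76, edgeR adjusted p = 0.0107), with Plin1 at 0. Y-linked genes, which tell the sex of the cells, had 4 of 6 analysed, led by Ddx3y at 36.5 and 40.9 CPM with dexamethasone alone and 33.1 and 29.6 CPM with EPC-EVs added, and none was called. The median of the Y-linked genes was -0.32, and 0.69 after trend removal, when 1 was called higher. Fabp4 was not called by limma on log2(FPKM + 1) (-1.01, limma adjusted p = 0.0688) and without dexamethasone replicate 1 (-2.34, edgeR adjusted p = 0.259). Ddx3y was called higher after trend removal (0.78, edgeR adjusted p = 0.017).

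Of the 12 largest rises by log2 fold change among called genes that averaged 10 CPM or more in their higher group, 10 lay in genes below 4 CPM in both dexamethasone libraries, the other 2 being Fos and Sfrp2. 1110038B12Rik, a host gene of small nucleolar RNAs that overlaps Gm25744 and Snord52, had 3 counts with dexamethasone alone and 294 with EPC-EVs added, a ratio of 52.8 with a counting interval of 17.9 to 257. Mief2, which recruits the mitochondrial fission machinery and overlaps Mir5100, rose from 0 and 0.736 to 13.5 and 12.95 CPM (log2 fold change 5.08, edgeR adjusted p = 0.000315). Hes6 (ENSMUSG00000067071.8, chromosome 1 from 91411483 to 91414038), a repressor of the Hes family, rose from 1.02 and 0.294 to 12.8 and 10.5 CPM, and Ap5b1, a subunit of an adaptor complex of late endosomes, rose from 2.18 and 2.06 to 38.6 and 28.2 CPM. Duoxa1, a maturation factor of dual oxidases that overlaps Duoxa2, rose from 1.31 and 0 to 7.68 and 13.7 CPM. Megf6 and Aoc3, which overlap Gm13132 and Gm28156, had log2 fold changes of 4.79 and 4.29, and Clca2 4.49. Each of these 8 genes was above 7 CPM in both EPC-EV libraries. Mief2 had no count left in the dexamethasone group without dexamethasone replicate 2. Duoxa1 was not called by DESeq2 (3.97, DESeq2 adjusted p = 0.109). Duoxa1 had no count left in the dexamethasone group without dexamethasone replicate 1.

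Under the same limit of 10 CPM, the largest falls by log2 fold change were in Nos2, Il33 and Lcn2, given with the inflammatory genes below, and mt-Nd2 and Rgs5 were also among the largest 12. The other 7 follow. Klra2 (ENSMUSG00000030187.15, chromosome 6 from 131219223 to 131247362), a lectin-like receptor gene of natural killer cells, fell from 17.9 and 19.7 to 0.0792 and 0.392 CPM, and Serpina3i, an acute-phase protease inhibitor, fell from 16.6 and 16.9 to 0.396 and 0.0785 CPM. Cetn4, a centrin that overlaps Bbs12 and Gm43439, fell from 11.5 and 11.5 to 0.396 and 0.157 CPM (log2 fold change -5.36, edgeR adjusted p = 8.01e-05). Gm14305, a predicted gene overlapping Zfp973, fell from 24.02 and 18.8 to 0.158 and 0.471 CPM, and Gm21738 fell from 25.6 and 18.8 to 0.158 and 0.785 CPM. These 5 sat above 10 CPM in both dexamethasone libraries and below 1 CPM in both EPC-EV libraries. Gm28439, a pseudogene overlapping Gm10222, fell from 297 and 279 to 4.04 and 5.97 CPM, and Gm10800 had a log2 fold change of -6.11.

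By CPM, not divided by length, the 8 largest gains were in Gm26917, in Postn, Col12a1, Col1a2, Col1a1 and Fn1 of the matrix, and in Scd2 and Flna. Gm26917 went from 10894 and 7629 to 59896 and 69266 CPM, with 6044 and 2579 CPM in control (log2 fold change 2.76). Fn1, encoding fibronectin and overlapping Apol7d, had 18561 and 18735 CPM with dexamethasone alone and 23577 and 19985 CPM with EPC-EVs added and was not called, its EPC-EV libraries only slightly above (log2 fold change 0.18, edgeR adjusted p = 0.228). The largest losses were in mt-Co1, mt-Nd5 and mt-Nd1, in Spp1, which encodes osteopontin and overlaps Gm42793, and in B2m, Fth1 and mt-Nd4, the last overlapping mt-Nd4l. Gm26917 stood at a log2 fold change of 1.12 after trend removal, from 2.76. Gm26917 was not called without EPC-EV replicate 2 (2.67, edgeR adjusted p = 0.138). Fn1 had a log2 fold change of 0.31 without EPC-EV replicate 2.

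The listed enzymes of cholesterol synthesis all rose, 19 of 19, with a median log2 fold change of 1.83 against 0.01 over all genes tested. They counted 18 higher and 0 lower with the trend removed (median 1.93). The median GC content of these genes was 48.7%, near the 48.8% of all genes tested. Fdps (ENSMUSG00000059743.12, chromosome 3 from 89093588 to 89101959), which joins isoprene units into farnesyl diphosphate, rose from 2.18 and 2.94 to 25.3 and 34.1 CPM, and Lss, which closes the ring of lanosterol, rose from 42.8 and 35.9 to 232 and 239 CPM. Upstream, Mvk and Mvd of the mevalonate path rose from 18.1 and 12.2 to 140.2 and 96.9 CPM and from 13.5 and 10.3 to 78.6 and 82.2 CPM. Both EPC-EV libraries lay far above both dexamethasone libraries at each step. Tm7sf2, a sterol reductase, had 1.303 and 7.96 CPM in control and rose from 6.55 and 4.56 to 52.99 and 53.3 CPM (log2 fold change 3.21, standard error 0.267, edgeR adjusted p = 6.44e-06).

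Some genes that carry and sense sterol moved with the enzymes. Of 13 genes of sterol uptake, regulation and efflux, 6 were called higher and 2 lower (median 0.16). Stard4, a sterol carrier, rose from 30.3 and 31.9 to 146 and 151 CPM (log2 fold change 2.21, edgeR adjusted p = 2.6e-06), and Srebf2, the transcription factor of the pathway, rose from 181 and 142 to 600.02 and 543 CPM. Insig1, which holds SREBP back when sterol is plentiful, rose from 41.9 and 31.5 to 98.4 and 122 CPM, whereas Insig2 was not called at 67.4 and 61.5 CPM with dexamethasone alone and 60.5 and 60.1 CPM with EPC-EVs added. Mylip, a ubiquitin ligase, was not called at 121 and 101 against 105 and 98.4 CPM. The EPC-EV libraries were high in Stard4, Srebf2 and Insig1, and near the dexamethasone range in Mylip. Srebf2 stood at a log2 fold change of 1.09 after trend removal, from 1.78. The uptake and efflux list counted 4 higher and 1 lower with the trend removed (median 0.01).

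Fatty acid synthesis rose alongside, with 12 of 15 genes called higher and none lower (median 1.303). Fasn, the fatty acid synthase, rose from 274 and 197 to 1341 and 1448 CPM, with 126 and 74.05 CPM in control (log2 fold change 2.52, edgeR adjusted p = 9.81e-07). Acss2 and Acly, which supply acetyl-CoA, rose from 15.4 and 11.3 to 96.5 and 90.7 CPM and from 208 and 156 to 788 and 846 CPM. Fads2 and Scd2, desaturases, rose from 105 and 73.8 to 356 and 341 CPM and from 1023 and 828 to 3299 and 3294 CPM, and Scd2 overlaps Mir5114. All 5 genes had EPC-EV values at least 3 times those of either dexamethasone library. Elovl5, an elongase, was not called at 80.8 and 79.2 CPM with dexamethasone alone and 79.9 and 76.5 CPM with EPC-EVs added. The fatty acid list counted 12 higher and 0 lower with the trend removed (median 1.17).

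Genes that load fatty acids onto lipids and store them were split. Lpcat3, which places polyunsaturated chains into phospholipids, rose from 22.9 and 22.8 to 127 and 117 CPM and Acsl5 rose from 32.8 and 28.4 to 95.8 and 113 CPM, while Acsl1 fell from 69.9 and 68.6 to 32.8 and 26.8 CPM. Acsl4, the synthetase of arachidonic acid, lay at 180.4 and 175 CPM with dexamethasone alone and 118 and 157 CPM with EPC-EVs added and was not called. The list of acyl-CoA synthetases and acyltransferases counted 7 higher and 2 lower of 16, and 3 higher and 2 lower with the trend removed (median 0.39). Adipogenic and storage genes counted 4 higher and 1 lower of 12 (median 0.44), and 0 higher and 1 lower with the trend removed (median 0.02), and 2 higher and 1 lower without dexamethasone replicate 2. Cebpb, an early factor of fat cell formation, rose from 33.9 and 18.4 to 111 and 109.5 CPM. Pparg and Adipoq were too low to test, and Plin2, of the lipid droplet coat, was not called at 82.98 and 66.5 CPM with dexamethasone alone and 77.2 and 69.5 CPM with EPC-EVs added. Acsl4 had a log2 fold change of -0.62 without EPC-EV replicate 2. Cebpb was not called after trend removal (0.51, edgeR adjusted p = 0.078).

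**Figure D3:**
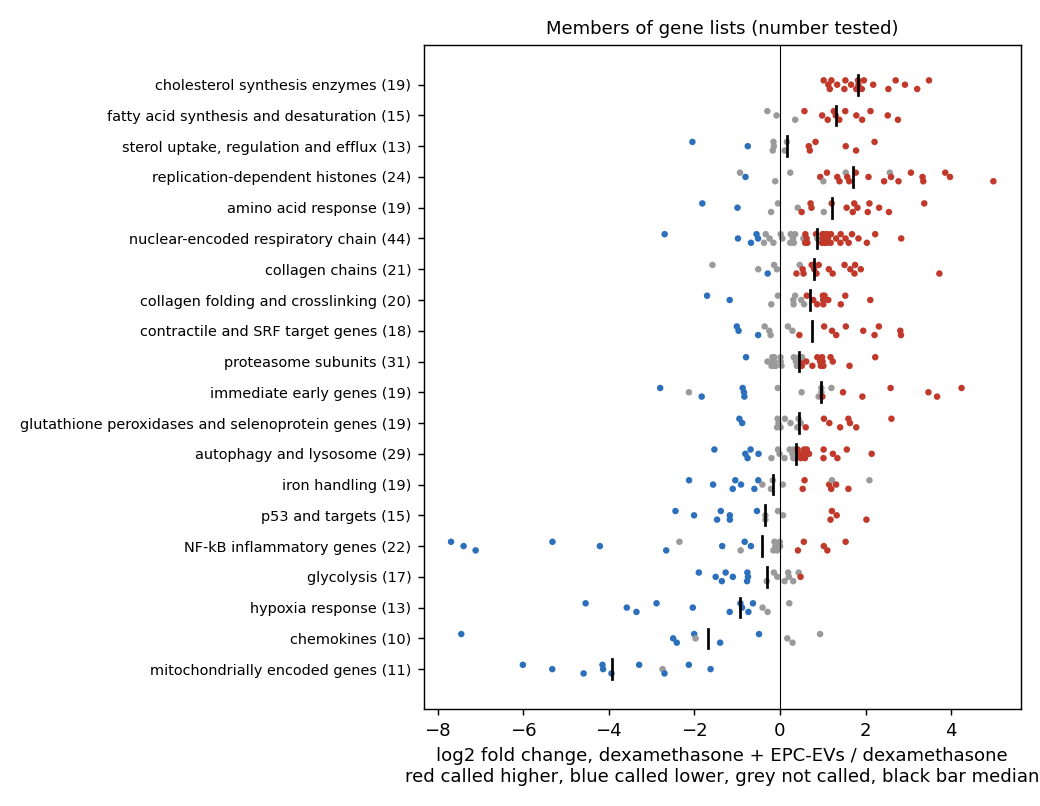
Log2 fold change of every tested member of chosen gene lists, with list medians. The lists drawn are a part of those given in the text. Medians included 1.83 for cholesterol synthesis enzymes and -3.94 for mitochondrially encoded genes.

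Inflammatory genes of the NF-kB group fell more often than they rose, 9 against 5 of 22, with a median of -0.42. Nos2, the inducible nitric oxide synthase, fell from 376 and 386 to 1.43 and 2.35 CPM, and Lcn2, an iron-binding secreted protein, fell from 799 and 1002 to 4.36 and 9.03 CPM. Il33, an alarm cytokine, fell from 42.9 and 51.2 to 0.317 and 0.235 CPM, and Saa3, an acute-phase protein, fell from 69.9 and 71.7 to 1.82 and 6.04 CPM. In control Nos2 had 423 and 229 CPM and Saa3 93.2 and 63.7 CPM, with replicate 1 above and replicate 2 below both dexamethasone libraries. Lcn2 had 1203 and 1213 CPM and Il33 63.0 and 64.7 CPM in control, above both dexamethasone libraries. Complement C3 fell from 946 and 1126 to 110.3 and 228 CPM (log2 fold change -2.66, standard error 0.362, edgeR adjusted p = 0.00313). Tlr2, a receptor for bacterial lipoproteins, rose instead from 11.2 and 8.98 to 28.2 and 32.3 CPM. The NF-kB subunit gene Nfkb2 also rose, from 65.5 and 54.2 to 119.9 and 131.6 CPM. Relb, another subunit gene, rose from 11.9 and 10.2 to 23.8 and 25.4 CPM. Other fits of Nfkb2 and Relb are not given here. Neither Birc3 nor the inhibitor Nfkbia was called, at 8.15 and 11.5 against 10.7 and 7.54 CPM for Birc3 and 59.1 and 49.9 against 49.03 and 63.2 CPM for Nfkbia. Their libraries overlapped between the groups. NF-kB genes counted 4 higher and 12 lower with the trend removed (median -0.67), and 2 higher and 7 lower without dexamethasone replicate 2.

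Chemokine genes were mostly lower, 6 of 10 tested with none higher and a median of -1.69, and counted 0 higher and 6 lower with the trend removed (median -1.51), and 2 higher and 6 lower of 9 without EPC-EV replicate 1. Cxcl5, which draws neutrophils, had 121 counts with dexamethasone alone and 1 with EPC-EVs added, a 225-fold ratio with a counting interval of 39.6 to 8950. Ccl5 and Ccl9 fell from 31.2 and 36.7 to 6.34 and 6.04 CPM and from 13.5 and 14.7 to 3.25 and 4.003 CPM. Cxcl12, the factor that holds blood progenitors in marrow, fell from 299.9 and 384 to 159.7 and 108 CPM, and Cxcl10, induced by interferon, fell from 22.3 and 23.7 to 2.85 and 6.04 CPM (log2 fold change -2.41, edgeR adjusted p = 0.000597). Both EPC-EV libraries were below both dexamethasone libraries in each. Ccl2 was not called at 18.8 and 15.9 CPM with dexamethasone alone and 14.4 and 54.2 CPM with EPC-EVs added, its EPC-EV replicate 2 being high and replicate 1 low. Ccl2 had a log2 fold change of 1.61 without EPC-EV replicate 1.

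Interferon-stimulated genes counted 5 higher and 5 lower of 25, 20% each beside the 20.9% and 18.9% of all genes tested, with a median of -0.20. Ifi35 rose from 14.1 and 11.2 to 47.6 and 35.6 CPM, whereas Gbp7, a guanylate-binding protein, fell from 21.5 and 33.9 to 6.65 and 6.91 CPM and Oasl2 fell from 142 and 141 to 71.1 and 85.1 CPM. Irf9 was not called at 39.3 and 40.2 against 39.9 and 49.9 CPM, with groups that overlapped. The interferon list counted 4 higher and 5 lower with the trend removed (median -0.05), and 2 higher and 3 lower without dexamethasone replicate 1, 2 higher and 2 lower without dexamethasone replicate 2 and 2 higher and 5 lower without EPC-EV replicate 2. Without dexamethasone replicate 2 the median of the interferon list was 0.03. In antigen presentation, B2m, the light chain of class I molecules that overlaps Patl2, fell from 3903 and 4457 to 847 and 890.2 CPM (log2 fold change -2.31). Tapbp, which loads peptides onto class I molecules, rose from 178 and 165 to 742 and 869 CPM (log2 fold change 2.18, edgeR adjusted p = 7.99e-07), and H2-K1 was not called at 275 and 262 CPM with dexamethasone alone and 308 and 309 CPM with EPC-EVs added. Antigen presentation genes counted 4 higher and 1 lower of 11 (median 0.44), and 2 higher and 3 lower with the trend removed (median -0.03), and 2 higher and 1 lower without dexamethasone replicate 1. B2m stood at a log2 fold change of -1.42 after trend removal, from -2.31.

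Immediate early genes parted into 2 directions, 7 higher and 5 lower of 19 with a median of 0.97. Fos rose from 7.57 and 10.01 to 164 and 180.5 CPM, a 18.96-fold difference, and Fosb rose from 12.5 and 11.6 to 122 and 196 CPM. Ier2 and Junb rose from 24.6 and 14.9 to 241 and 211 CPM and from 29.6 and 26.8 to 175 and 175 CPM. Other AP-1 genes differed, Fosl1 falling from 258 and 204 to 39.4 and 29.04 CPM and Jun from 499 and 448 to 263 and 271 CPM, while Fosl2 was not called at 306 and 221 against 354 and 665 CPM (log2 fold change 0.90). Nr4a2, a nuclear receptor, fell from 18.3 and 16.2 to 5.07 and 4.95 CPM (log2 fold change -1.83, edgeR adjusted p = 0.00178), and Egr1 was not called at 265 and 304 CPM with dexamethasone alone and 320.2 and 248 CPM with EPC-EVs added. The groups overlapped for Egr1 and stood apart for the other 8 genes. Junb and Jun stood at log2 fold changes of 1.46 and -1.41 after trend removal, from 2.59 and -0.87. Fosl2 had a log2 fold change of 1.3 without EPC-EV replicate 1 and 0.40 without EPC-EV replicate 2. Egr1 was called lower after trend removal (-0.71, edgeR adjusted p = 0.0045). Immediate early genes counted 6 higher and 6 lower with the trend removed (median 0.30), and 11 higher and 5 lower without EPC-EV replicate 2. Their median was 0.10 without EPC-EV replicate 1.

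Kruppel-like factors counted 3 higher and 3 lower of 10, and 2 higher and 3 lower with the trend removed (median -0.30). Klf2, a factor induced by fluid flow in endothelial cells, had 7.98 and 0.796 CPM in control and rose from 3.06 and 2.65 to 57.97 and 51.02 CPM (log2 fold change 4.20, standard error 0.28, edgeR adjusted p = 1.48e-06). Klf13 rose from 88.2 and 74.8 to 180.3 and 186 CPM and Klf6 fell from 187 and 208 to 96.9 and 106 CPM, while Klf9, a glucocorticoid target, was not called at 60.6 and 55.4 CPM with dexamethasone alone and 55.04 and 49.8 CPM with EPC-EVs added. The 4 libraries of Klf9 lay within a narrow range. Klf13 and Klf6 stood at log2 fold changes of 0.64 and -0.54 after trend removal, from 1.12 and -1.01.

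Collagen chains rose, 15 of 21 with 1 lower and a median of 0.80, and counted 12 higher and 6 lower with the trend removed (median 0.55). Their median GC content was 56.7%. Col1a1 and Col1a2, the 2 chains of type I collagen, rose from 2428 and 2905 to 8770.2 and 6914 CPM and from 2739.9 and 2750.5 to 11662 and 9351 CPM, and Col1a2 overlaps Gm43921. Col12a1, which lines type I fibrils and overlaps 4930562D21Rik, rose from 3432 and 3388 to 11971 and 11831 CPM, and Col4a1, of basement membranes, rose from 336 and 322 to 976 and 1294 CPM. Col8a2 (ENSMUSG00000056174.8, chromosome 4 from 126286793 to 126314330), a short-chain collagen, had the largest rise of the list, from 47.2 and 45.2 to 651 and 613 CPM (log2 fold change 3.73, standard error 0.136, edgeR adjusted p = 3.66e-08). Both EPC-EV libraries were well above both dexamethasone libraries in all 5 genes. Col6a2 was not called at 1497 and 1542 CPM with dexamethasone alone and 1403 and 1450.01 CPM with EPC-EVs added. Col1a1 and Col4a1 stood at log2 fold changes of 0.76 and 1.10 after trend removal, from 1.51 and 1.74. Col6a2 was called lower after trend removal (-0.59, edgeR adjusted p = 0.00124).

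Enzymes that fold and crosslink collagen counted 11 higher and 2 lower of 20 (median 0.70). Fkbp10, a collagen chaperone, rose from 65.9 and 75.4 to 300.2 and 330.2 CPM, and Plod3, a lysyl hydroxylase, rose from 88.8 and 91.4 to 206 and 292 CPM. Loxl1 and Loxl3, which oxidize lysines for crosslinks, rose from 55.2 and 45.5 to 143 and 157 CPM and from 76.7 and 64.2 to 161 and 157 CPM. Of the prolyl hydroxylase subunits, P4ha1 fell from 543 and 523 to 256 and 231 CPM and P4ha2 from 291 and 275 to 99.1 and 80.1 CPM (edgeR adjusted p = 2.67e-05 and 8.04e-06), while P4ha3 and P4hb were not called, at 971 and 966 against 953 and 982 CPM for P4hb. Lox was not called at 695 and 662 against 624 and 594 CPM. The 2 groups stood apart in P4ha1 and P4ha2 and in the crosslinking enzymes called, and overlapped in P4hb. Plod3, Loxl1 and Loxl3 stood at log2 fold changes of 0.73, 0.57 and 0.75 after trend removal, from 1.42, 1.53 and 1.13. P4hb was called lower after trend removal (-0.46, edgeR adjusted p = 0.00565). The list counted 9 higher and 3 lower with the trend removed (median 0.35).

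Adhesive glycoproteins and proteoglycans balanced at 8 higher and 8 lower of 23, with a median of 0.02 that changed sign with the scaling, and 6 higher and 9 lower with the trend removed (median -0.21), and 6 higher and 5 lower without dexamethasone replicate 2. Postn (ENSMUSG00000027750.16, chromosome 3 from 54361109 to 54391037), encoding periostin of the periosteum, rose from 1137 and 1302 to 11482 and 13920.4 CPM, with 1153 and 2183 CPM in control (log2 fold change 3.33, standard error 0.135, edgeR adjusted p = 7.06e-08). Fbln5, an elastic fibre protein, and Aspn, a small leucine-rich proteoglycan, rose from 28.5 and 31.7 to 80.2 and 119.9 CPM and from 35.8 and 40.8 to 133 and 251 CPM. Others of the same proteoglycan family fell, Dcn from 499 and 494 to 93.2 and 45.5 CPM and Prelp from 197 and 225 to 42.5 and 20.7 CPM, as did the basement membrane protein Nid1 from 311 and 295 to 89.5 and 107 CPM. No library of 1 group reached the range of the other in any of them. Aspn and Dcn stood at log2 fold changes of 3.76 and -1.90 after trend removal, from 2.28 and -2.89.

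Matrix proteases and inhibitors counted 4 higher and 7 lower of 16. The membrane protease Mmp14 rose from 369 and 312 to 958 and 1088 CPM and Mmp2, which it activates, rose from 601 and 632 to 1390.2 and 1236 CPM. Mmp3 and Mmp9 fell from 6.99 and 8.097 to 0.554 and 0.314 CPM and from 30.9 and 42.7 to 10.2 and 9.58 CPM, and the inhibitor Timp1 fell from 266 and 251 to 113 and 73.2 CPM (log2 fold change -1.52, edgeR adjusted p = 8.2e-05). Timp3 was not called at 900.4 and 905 CPM with dexamethasone alone and 787 and 832 CPM with EPC-EVs added. Mmp3 was below 1 CPM in both EPC-EV libraries. Proteases and inhibitors counted 3 higher and 6 lower with the trend removed (median -0.40), and 2 higher and 5 lower without dexamethasone replicate 2. Mmp2 stood at a log2 fold change of 0.52 after trend removal, from 1.05.

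Contractile genes rose, 10 of 18 with 3 lower and a median of 0.74. Acta2, smooth muscle actin, rose from 336 and 329.8 to 2446 and 2435 CPM, and Tagln, an actin-binding protein of smooth muscle, rose from 25.9 and 16.6 to 163 and 146 CPM. Myl9 and Actg2 rose from 49.5 and 30.8 to 199 and 213 CPM and from 14.99 and 15.02 to 73.9 and 69.6 CPM. Flna, which crosslinks actin, rose from 855 and 712 to 3207 and 3026 CPM (log2 fold change 1.95, edgeR adjusted p = 1.08e-06). Each showed a wide gap between the groups. Tpm1 was not called at 604 and 681 against 771 and 739 CPM. Contractile genes counted 9 higher and 5 lower with the trend removed (median 0.28), and 10 higher and 5 lower without EPC-EV replicate 1.

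Several genes of bone matrix rose, while Runx2 and Dlx5 of the lineage factors were not called. Of 10 osteoblast transcription factors 2 were called higher and 1 lower, and 1 higher and 2 lower with the trend removed (median 0.14), and 4 higher and 1 lower without EPC-EV replicate 2. Dlx5 had 49.1 and 58.4 against 57.02 and 68.9 CPM, with overlapping groups. Atf4, which drives late osteoblast genes and amino acid supply, rose from 62.02 and 42.99 to 192 and 258 CPM (log2 fold change 2.05, edgeR adjusted p = 1.89e-05). Matrix and mineralization genes counted 5 higher and 2 lower of 11 (median 1.07), and 5 higher and 1 lower with the trend removed (median 0.76). Sparc, a collagen-binding protein, rose from 982 and 1061 to 2472 and 2529 CPM, Ank, a pyrophosphate channel, rose from 205 and 168 to 444 and 442 CPM, and Smpd3, a sphingomyelinase needed for mineralization, rose from 3.06 and 2.21 to 10.8 and 20.6 CPM. Spp1 fell from 10693 and 10568 to 6104 and 4405 CPM. Dmp1, a matrix protein of osteocytes, had 333 and 348 CPM with dexamethasone alone and 138 and 26.1 CPM with EPC-EVs added with unlike EPC-EV replicates and was not called (edgeR adjusted p = 0.258). Of the signals to osteoclasts and hormone receptors, 7 were tested, 1 higher and 1 lower, and 2 higher and 0 lower with the trend removed (median 0.23). Csf1 had 624 and 601 against 1004 and 858 CPM (log2 fold change 0.56) and Tnfrsf11b, encoding osteoprotegerin, had 56.9 and 54.3 against 36.04 and 34.5 CPM (log2 fold change -0.70). Spp1 stood at a log2 fold change of -0.53 after trend removal, from -1.06. Dmp1 had a log2 fold change of -3.74 without EPC-EV replicate 1 and -1.33 without EPC-EV replicate 2. Csf1 was not called after trend removal (0.12, edgeR adjusted p = 0.449) and without dexamethasone replicate 2 (0.53, edgeR adjusted p = 0.0751). Tnfrsf11b was not called after trend removal (-0.25, edgeR adjusted p = 0.327), without dexamethasone replicate 1 (-0.65, edgeR adjusted p = 0.0697) and without dexamethasone replicate 2 (-0.74, edgeR adjusted p = 0.0529).

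Wnt genes counted 8 higher and 4 lower of 20 (median 0.26), with receptors going both ways. Sfrp2, a secreted Wnt antagonist that overlaps Gm26771, rose from 23.9 and 15.02 to 287 and 341 CPM, with 19.7 and 16.1 CPM in control (log2 fold change 3.97, standard error 0.212, edgeR adjusted p = 3.45e-07). The receptors Fzd2 and Fzd5 rose from 6.55 and 6.33 to 79.2 and 79.8 CPM and from 26.9 and 18.4 to 62.9 and 58.6 CPM, while Fzd4 fell from 13.4 and 14.4 to 4.67 and 3.92 CPM. Tcf7l2, a nuclear partner of beta-catenin, fell from 214 and 217 to 119.9 and 96.7 CPM, and Wisp2 rose from 29.1 and 32.4 to 142 and 120.3 CPM. Axin2, a common readout of the pathway, was not called at 13.4 and 12.7 CPM with dexamethasone alone and 15.7 and 5.81 CPM with EPC-EVs added. The groups overlapped for Axin2 and stood apart for the rest. Wnt genes counted 7 higher and 4 lower with the trend removed (median 0.10).

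Genes of the BMP and TGF-beta pathways were called in both directions. Id1 and Id3, induced by BMP, rose from 5.82 and 6.18 to 16.8 and 19.5 CPM and from 13.98 and 10.6 to 41.98 and 44.7 CPM, and the inhibitor Smad6 rose from 1.16 and 0.294 to 12.99 and 10.5 CPM (log2 fold change 3.94, edgeR adjusted p = 0.000461). BMP genes counted 4 higher and 2 lower of 16, 25.0% and 12.5% beside 20.9% and 18.9% of all genes tested (median 0.09), and 3 higher and 1 lower with the trend removed (median 0.38). Among TGF-beta genes, 6 of 19 were higher and 4 lower (median 0.16), and 5 higher and 5 lower with the trend removed (median -0.21), and 3 higher and 2 lower without dexamethasone replicate 2. Ctgf and Cyr61, matricellular targets, rose from 7.13 and 10.01 to 24.6 and 26.1 CPM and from 105 and 123 to 413 and 487 CPM, and Ltbp1, which stores the ligand in matrix, rose from 297 and 309 to 556 and 736 CPM. Tgfbr1 and Smad3 fell from 108 and 121 to 46.97 and 30.9 CPM and from 175 and 172 to 121 and 99.1 CPM. In control Ctgf had 17.8 and 25.1 CPM and Cyr61 230.5 and 458 CPM, above both dexamethasone libraries. Tgfbr1 and Smad3 stood at log2 fold changes of -0.99 and -1.05 after trend removal, from -1.60 and -0.70. Without dexamethasone replicate 1 the TGF-beta median was at 0.00.

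Growth factor genes were mostly lower or not called, with 1 higher and 7 lower of 21 (median -0.28). Kitl, the ligand of the Kit receptor, fell from 82.4 and 65.2 to 17.1 and 12.5 CPM (log2 fold change -2.36, edgeR adjusted p = 1.85e-05), and Ereg, a ligand of the EGF receptor, fell from 39.9 and 33.7 to 8.63 and 6.83 CPM. Pdgfc rose from 81.8 and 55.6 to 162 and 140.3 CPM, whereas Vegfa was not called at 211 and 188 CPM with dexamethasone alone and 192 and 145 CPM with EPC-EVs added. The Vegfa libraries overlapped between groups. Growth factors counted 2 higher and 9 lower with the trend removed (median -0.43). In the insulin-like growth factor system 5 of 12 genes were higher and none lower (median 0.03, of a sign that changed with the scaling), and 1 higher and 1 lower with the trend removed (median 0.10), and 2 higher and 0 lower without dexamethasone replicate 1 and 2 higher and 0 lower without dexamethasone replicate 2. Igf1 (ENSMUSG00000020053.18, chromosome 10 from 87858265 to 87937042) itself rose from 34.2 and 32.7 to 211 and 179 CPM (log2 fold change 2.50, standard error 0.16, edgeR adjusted p = 1.13e-06), from 48.7 and 60.3 CPM in control, and Igf1r was not called at 311 and 345 CPM with dexamethasone alone and 309 and 316 CPM with EPC-EVs added. Ereg stood at a log2 fold change of -1.49 after trend removal, from -2.30. Vegfa had a log2 fold change of -0.49 without EPC-EV replicate 1. Vegfa was called lower after trend removal (-0.49, edgeR adjusted p = 0.0298).

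Notch genes had 1 call, and hedgehog genes were called in both directions. Of 6 Notch genes 0 were higher and 1 lower, 0.0% and 16.7% beside the 20.9% and 18.9% of all genes tested (median 0.14). With the trend removed 0 were higher and 3 lower (median -0.37). Hes1, a target of the pathway, was not called at 2.91 and 0.589 against 8.71 and 3.69 CPM, with unlike dexamethasone replicates. Hedgehog genes counted 4 higher and 1 lower of 9, with a median of 0.01 whose sign changed with the scaling, and 3 higher and 3 lower with the trend removed (median -0.08), and 2 higher and 0 lower without dexamethasone replicate 1. Gas1, a co-receptor, rose from 227 and 180.2 to 462 and 589 CPM and Smo, the signalling receptor, rose from 142 and 155 to 316 and 320.1 CPM. Gli2 had 26 counts with dexamethasone alone and 0 with EPC-EVs added, at least 16.1-fold lower. It was the 1 hedgehog gene called lower, was not tested without dexamethasone replicate 1, and was not called without dexamethasone replicate 2, without EPC-EV replicate 1 or without EPC-EV replicate 2 (edgeR adjusted p = 0.0514, 0.0907 and 0.0886) or by limma on FPKM (limma adjusted p = 0.157 and 0.0738). Ptch1, a target and receptor of the pathway, was not called at 47.2 and 41.5 against 35.2 and 33.8 CPM, slightly lower in both EPC-EV libraries. Gas1 and Smo stood at log2 fold changes of 0.57 and 0.37 after trend removal, from 1.32 and 1.05. Hes1 had a log2 fold change of 3.34 without dexamethasone replicate 1 and 2.28 without EPC-EV replicate 2.

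Glucocorticoid targets parted as well, 6 higher and 2 lower of 16 with a median of 0.08, and 4 higher and 3 lower with the trend removed (median 0.13). Tsc22d3 rose from 25.6 and 31.7 to 94.3 and 217 CPM and Dusp1, a phosphatase of stress kinases, rose from 65.9 and 73.8 to 264 and 405 CPM. Rgs2, a regulator of G-protein signals, rose from 10.3 and 5.15 to 48.9 and 47.3 CPM (log2 fold change 2.59, standard error 0.308, edgeR adjusted p = 7e-05). The receptor gene Nr3c1 was not called at 164 and 173 against 160.3 and 137 CPM. Snai2 fell from 69.01 and 89.5 to 31.6 and 28.6 CPM. In control Tsc22d3 had 35.8 and 24.7 CPM and Dusp1 95.3 and 93.8 CPM, close to or above the dexamethasone libraries and far below the EPC-EV libraries. Snai2 stood at a log2 fold change of -0.89 after trend removal, from -1.44.

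Clock genes counted 5 higher and 6 lower of 16 (median -0.08), and 3 higher and 6 lower with the trend removed (median -0.30), and 3 higher and 5 lower without dexamethasone replicate 1, 2 higher and 3 lower without dexamethasone replicate 2 and 1 higher and 5 lower without EPC-EV replicate 2. Nr1d1, a repressor of the clock, fell from 262 and 300.03 to 85.5 and 90.3 CPM, and Bhlhe40 fell from 289 and 250.3 to 173 and 142 CPM, while Tef, an output factor, rose from 67.3 and 68.8 to 141 and 156 CPM (log2 fold change 1.08, edgeR adjusted p = 0.000176). Per3 and Cry2 were not called, at 53.1 and 44.02 against 56.2 and 37.4 CPM for Per3 and 23.7 and 21.8 against 18.5 and 26.8 CPM for Cry2, and their groups overlapped. Metallothioneins fell, Mt1 from 858 and 837 to 52.9 and 73.6 CPM and Mt2 from 236 and 169 to 39.4 and 64.7 CPM, with 867 and 389.7 CPM for Mt1 and 176 and 54.7 CPM for Mt2 in control. Mt1 had a log2 fold change of -3.79 (edgeR adjusted p = 1.04e-07). Slc39a14, an importer of zinc and iron, fell from 262 and 243 to 114 and 129 CPM, and Slc30a1, a zinc exporter induced by zinc, was not called at 7.72 and 10.7 CPM with dexamethasone alone and 10.2 and 9.89 CPM with EPC-EVs added. Metal genes counted 1 higher and 3 lower of 9, and 1 higher and 3 lower with the trend removed (median -0.04).

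**Figure D4:**
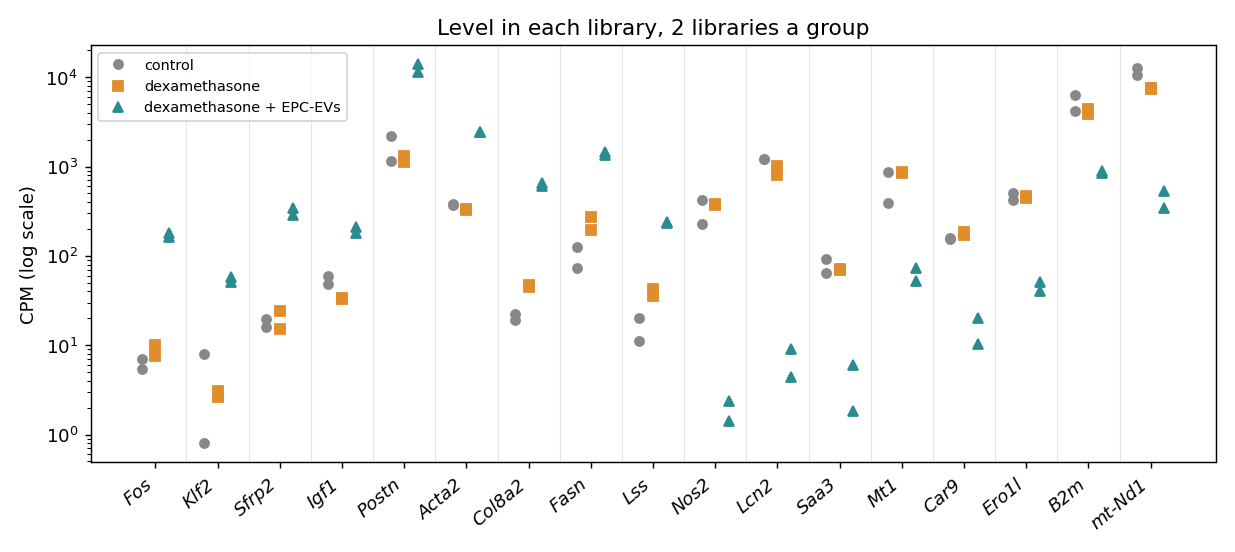
CPM of chosen genes in each library on a log scale, by treatment. Fos ran from 7.57 and 10.01 to 164 and 180.5 CPM and Nos2 from 376 and 386 to 1.43 and 2.35 CPM between dexamethasone and EPC-EV libraries.

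Selenoprotein genes rose more often than they fell, and targets of NRF2 the reverse. Glutathione peroxidase and selenoprotein genes counted 8 higher and 2 lower of 19 (median 0.43), and 8 higher and 1 lower with the trend removed (median 0.47), and 5 higher and 1 lower without dexamethasone replicate 2. Gpx4, which reduces lipid peroxides, rose from 57.1 and 51.8 to 181 and 159.8 CPM, and Gpx7 and Msrb1 rose from 3.06 and 2.94 to 19.4 and 18.4 CPM and from 23.1 and 21.5 to 73.1 and 70.2 CPM. Nfe2l2, encoding NRF2, fell from 285 and 299 to 113 and 119.7 CPM (log2 fold change -1.38, edgeR adjusted p = 1.42e-05), while its inhibitor Keap1 rose from 23.7 and 26.1 to 60.8 and 63.9 CPM. Its targets Hmox1, Gstm1 and Txnrd1 fell from 188 and 177 to 113 and 69.8 CPM, from 178 and 186 to 97.8 and 64.8 CPM and from 219 and 241 to 124 and 122 CPM. Both EPC-EV libraries were low in all 3. Txn1 was not called at 60.7 and 55.4 against 80.9 and 75.8 CPM. Nfe2l2, Keap1 and NRF2 targets together counted 3 higher and 6 lower of 18 (median -0.15), and 5 higher and 7 lower with the trend removed (median -0.30), and 5 higher and 5 lower without EPC-EV replicate 2. Gpx4 and Keap1 stood at log2 fold changes of 0.66 and 0.57 after trend removal, from 1.60 and 1.28. Txn1 was called higher after trend removal (0.58, edgeR adjusted p = 0.0181).

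Glutathione supply was mixed, 4 higher and 2 lower of 12 (median 0.02, whose sign changed with the scaling), and 3 higher and 2 lower with the trend removed (median 0.24). Slc7a11, the cystine carrier of system Xc-, fell from 21.4 and 17.96 to 2.297 and 7.38 CPM and Gclm fell from 48.04 and 51.1 to 34.8 and 24.6 CPM. Slc3a2 of the same list rose from 187 and 170 to 245 and 345 CPM (log2 fold change 0.68, edgeR adjusted p = 0.00652). Slc1a5, a glutamine carrier, rose from 25.04 and 25.3 to 91.2 and 101 CPM, and Chac1, which degrades glutathione, rose from 4.95 and 2.503 to 17.9 and 27.2 CPM (log2 fold change 2.55, edgeR adjusted p = 0.000575). Gss was not called at 24.7 and 18.8 against 29.9 and 21.3 CPM, with overlapping groups. Iron genes counted 6 higher and 7 lower of 19 (median -0.17), and 6 higher and 7 lower with the trend removed (median 0.23). The ferritin chains parted, Fth1 falling from 4896 and 5157 to 1749.7 and 1761 CPM and Ftl1 rising from 291 and 278 to 717 and 586 CPM. Among ferroxidases Cp fell from 1014 and 1049.8 to 238 and 250.2 CPM and Heph rose from 7.13 and 9.13 to 20.2 and 21.5 CPM. The iron sensor Aco1 rose from 29.3 and 23.1 to 65.6 and 58.6 CPM, and Tfrc, its usual target, was not called at 20.2 and 10.6 against 13.5 and 13.97 CPM. Only for Tfrc did the groups overlap among these iron genes. Ftl1 stood at a log2 fold change of 0.40 after trend removal, from 1.15. Slc7a11 was not called without dexamethasone replicate 1 (-1.92, edgeR adjusted p = 0.0676). Slc7a11 had a log2 fold change of -3.12 without EPC-EV replicate 2. Gclm was not called after trend removal (-0.28, edgeR adjusted p = 0.388), without dexamethasone replicate 1 (-0.81, edgeR adjusted p = 0.0729), without dexamethasone replicate 2 (-0.74, edgeR adjusted p = 0.102) and without EPC-EV replicate 2 (-0.54, edgeR adjusted p = 0.101).

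Hypoxia genes fell, 10 of 13 with none higher and a median of -0.92 against 0.01 over all genes tested, and counted 0 higher and 11 lower with the trend removed (median -1.01). Car9 (ENSMUSG00000028463.14, chromosome 4 from 43506966 to 43513729), a carbonic anhydrase set by oxygen, fell from 184 and 172 to 20.4 and 10.2 CPM, and Ero1l, an oxidase of the endoplasmic reticulum, fell from 445 and 464 to 40.2 and 51.6 CPM. Ndrg1 fell from 183 and 176 to 27.6 and 22.6 CPM (log2 fold change -2.88, standard error 0.166, edgeR adjusted p = 6.35e-07). Car9 stood at 154 and 158 CPM in control, near the dexamethasone libraries. Hif1a itself had 635 and 721 CPM with dexamethasone alone and 441 and 1187 CPM with EPC-EVs added, with 1 EPC-EV library below and 1 above both dexamethasone libraries. Hif1a had a log2 fold change of 0.77 without EPC-EV replicate 1 and -0.65 without EPC-EV replicate 2.

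Glycolysis genes were more often lower than higher, 8 against 1 of 17 (median -0.31). Hk2, which traps glucose, fell from 237 and 174 to 70.8 and 94.7 CPM, Gpi1 fell from 822 and 813 to 314 and 282 CPM and Gapdh fell from 4686 and 4053 to 1956 and 1786 CPM. Pdk1, which holds pyruvate out of mitochondria, fell from 109.9 and 109 to 33.5 and 27.2 CPM (log2 fold change -1.90, edgeR adjusted p = 1.3e-05). Tpi1 was not called at 406 and 376 against 557 and 444 CPM, with both EPC-EV libraries above. For the others named here both EPC-EV libraries lay well below the dexamethasone libraries. Tpi1 had a log2 fold change of 0.48 without EPC-EV replicate 2. Glycolysis genes counted 0 higher and 13 lower with the trend removed (median -0.84).

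Respiratory chain genes parted by the genome that encodes them. Of 44 nuclear genes 26 rose and 5 fell (median 0.86), and 26 higher and 6 lower with the trend removed (median 0.77), and 22 higher and 2 lower without dexamethasone replicate 1 and 21 higher and 3 lower without dexamethasone replicate 2. Cox8a, of complex IV, rose from 52.99 and 46.2 to 381 and 351 CPM, Uqcrq, of complex III, rose from 13.7 and 9.13 to 50.4 and 46.1 CPM, and Atp5b, of the ATP synthase, rose from 553 and 488 to 1191 and 1048 CPM. Ndufb10 fell from 41.9 and 42.99 to 19.8 and 24.6 CPM, and Sdha was not called at 133 and 134 against 144 and 135 CPM. The EPC-EV libraries were high for the 3 that rose and level with the others for Sdha. Of 11 mitochondrially encoded genes tested 10 fell and none rose (median -3.94), and 0 higher and 8 lower with the trend removed (median -2.45). mt-Nd5 and mt-Nd1, which overlap mt-Nd6 and mt-Ti, fell from 8002 and 8057 to 249.7 and 439 CPM and from 7403 and 7648 to 347 and 529 CPM (edgeR adjusted p = 1.24e-05 and 1.2e-07). mt-Co1, overlapping mt-Ts1, fell from 26819 and 29303 to 3642 and 5279.9 CPM, mt-Nd4, overlapping mt-Nd4l, fell from 3708 and 3969.7 to 205 and 312 CPM, and mt-Nd2, overlapping mt-Tw, fell from 2778 and 2516 to 25.3 and 59.4 CPM. mt-Cytb was not called at 3492 and 3598 CPM with dexamethasone alone and 230.2 and 862 CPM with EPC-EVs added, its EPC-EV replicates far apart but both below. mt-Co1 and mt-Nd4 stood at log2 fold changes of -1.76 and -2.45 after trend removal, from -2.70 and -3.94. mt-Nd2 was not called without a filter on counts (-5.98, edgeR adjusted p = 0.0501). mt-Cytb had a log2 fold change of -2.07 without EPC-EV replicate 1 and -3.97 without EPC-EV replicate 2.

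Histones of the replicating cell rose, 17 of 24 with 1 lower and a median of 1.70, and counted 17 higher and 1 lower with the trend removed (median 1.57). Hist1h4b and Hist1h3c rose from 1.89 and 4.27 to 56.6 and 36.3 CPM and from 10.5 and 3.83 to 93.1 and 58.2 CPM, and Hist2h4 rose from 62.6 and 61.5 to 252 and 186 CPM (log2 fold change 1.77, edgeR adjusted p = 1.52e-05). The linker Hist1h1e fell from 142 and 152 to 90.1 and 83.5 CPM. Genes of S phase counted 8 higher and 2 lower of 17 (median 0.76), and 7 higher and 1 lower with the trend removed (median 0.66), and 3 higher and 1 lower without dexamethasone replicate 2 and 5 higher and 3 lower without EPC-EV replicate 1. Mcm5, a helicase subunit, rose from 23.3 and 23.3 to 58.1 and 40.98 CPM. Mitosis genes counted 2 higher and 6 lower of 17 (median -0.24), and 2 higher and 3 lower with the trend removed (median -0.28), and 1 higher and 2 lower without dexamethasone replicate 2 and 6 higher and 4 lower without EPC-EV replicate 2. Cdk1 rose from 16.7 and 27.1 to 63.7 and 48.7 CPM, while Cenpf and Tpx2, of kinetochore and spindle, fell from 291 and 309 to 115 and 84.4 CPM and from 242 and 305 to 133 and 86.9 CPM. Kif20a was not called at 51.97 and 75.1 against 93.9 and 70.6 CPM. Groups overlapped for Kif20a only. Kif20a had a log2 fold change of 0.54 without EPC-EV replicate 2.

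Targets of p53 fell more often than they rose, 7 against 4 of 15 (median -0.34), and 1 higher and 9 lower with the trend removed (median -0.53). Cdkn1a, an inhibitor of cyclin kinases, fell from 468 and 533 to 238 and 158 CPM, and Mdm2 fell from 509 and 579 to 212 and 194 CPM. The death receptor Fas fell from 49.5 and 71.4 to 8.87 and 14.1 CPM (log2 fold change -2.44, edgeR adjusted p = 5.33e-05), and Sesn1 rose from 48.8 and 42.3 to 98.1 and 138 CPM. Trp53 was not called at 90.6 and 100.3 against 104 and 103 CPM, all 4 libraries being close. Bcl2 relatives and caspases counted 8 higher and 5 lower of 21 (median 0.01, of a sign that changed with the scaling), and 2 higher and 4 lower with the trend removed (median 0.00), and 5 higher and 3 lower without dexamethasone replicate 2. Mcl1, which guards against cell death, fell from 369.8 and 417 to 141 and 138 CPM, as did Bnip3 of mitophagy from 165 and 123 to 43.7 and 28.8 CPM, and Bad rose from 7.13 and 8.39 to 25.9 and 23.4 CPM. Bcl2 was not called, at 23.3 and 22.1 against 27.9 and 19.3 CPM, with groups that overlapped. Bad stood at a log2 fold change of 0.94 after trend removal, from 1.62.

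Genes of the amino acid response rose, 13 of 19 with 2 lower and a median of 1.21, and counted 12 higher and 3 lower with the trend removed (median 0.92). Atf5 and Phgdh, the latter of serine synthesis, rose from 17.6 and 8.54 to 104 and 177 CPM and from 38.6 and 29.3 to 144 and 155 CPM. Slc38a2, a carrier of neutral amino acids, rose from 80.8 and 101 to 272 and 354 CPM (log2 fold change 1.74, edgeR adjusted p = 1.7e-05). Ddit3, the death-linked member of the group, fell from 74.7 and 82.00 to 44.5 and 36.7 CPM. Cytosolic tRNA synthetases counted 9 higher of 20 and none lower (median 0.36), and 6 higher and 1 lower with the trend removed (median 0.24), and 3 higher and 0 lower without dexamethasone replicate 2. Farsa rose from 18.2 and 18.1 to 49.4 and 52.9 CPM, whereas Nars was not called at 211 and 177 against 197 and 208 CPM, its groups overlapping.

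Chaperones were divided. In the endoplasmic reticulum 4 of 21 genes were higher and 7 lower, Calr and Pdia3 falling from 1772 and 1811 to 877 and 785 CPM and from 799.98 and 831 to 387 and 445 CPM, and Herpud1 and Sec61b rising from 18.5 and 29.4 to 66.3 and 86.7 CPM and from 6.99 and 6.04 to 35.9 and 25.3 CPM. Dnajb11, a partner of the main chaperone there, was not called at 76.7 and 55.2 against 72.5 and 68.8 CPM, with overlapping groups. Of 18 heat shock genes 6 were higher and 5 lower, 33.3% and 27.8%. Hspa1b and Hspa8 rose from 8.298 and 12.5 to 58.1 and 117 CPM and from 142 and 136 to 415 and 390.2 CPM (edgeR adjusted p = 4.82e-05 and 7.21e-06), and Hsp90aa1 and Hspe1 fell from 558 and 563 to 233 and 230.3 CPM and from 87.8 and 114 to 32.7 and 45.8 CPM. The reticulum list counted 4 higher and 5 lower with the trend removed (median -0.13), and the heat shock list 5 higher and 4 lower with the trend removed (median 0.13), and 5 higher and 3 lower without dexamethasone replicate 1 and 4 higher and 3 lower without dexamethasone replicate 2.

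Proteasome subunits counted 14 higher and 1 lower of 31 (median 0.45), and 18 higher and 1 lower with the trend removed (median 0.57). The catalytic subunit Psmb5 rose from 8.59 and 3.39 to 33.7 and 24.4 CPM and Psmb4 rose from 28.1 and 21.6 to 86.2 and 72.5 CPM, while Psma6 was not called at 59.5 and 66.7 against 60.7 and 60.8 CPM. Groups overlapped for Psma6 and were far apart for Psmb5 and Psmb4. Autophagy and lysosome genes counted 14 higher and 5 lower of 29 (median 0.38), and 7 higher and 6 lower with the trend removed (median 0.13), and 7 higher and 4 lower without dexamethasone replicate 1 and 4 higher and 4 lower without dexamethasone replicate 2. The lysosomal protease Ctsd rose from 122 and 109 to 539.99 and 511 CPM (log2 fold change 2.14, edgeR adjusted p = 8.25e-07), whereas Ctsb fell from 1181 and 1201 to 758 and 769.8 CPM and Lamp2 fell from 489 and 584 to 158 and 225 CPM. Atg16l1 was not called at 36.8 and 38.4 against 36.2 and 39.1 CPM, with overlapping groups. Lamp2 stood at a log2 fold change of -0.68 after trend removal, from -1.53.

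Translation factors counted 8 higher and 7 lower of 24 (median -0.09), and 6 higher and 7 lower with the trend removed (median 0.11), and 5 higher and 5 lower without dexamethasone replicate 2. Eif5a rose from 108 and 78.03 to 342 and 322 CPM, and Eif3a and Pabpc1, the poly(A) binding protein, fell from 1228 and 1234 to 391 and 396 CPM and from 2312 and 2449 to 1062 and 1164 CPM (edgeR adjusted p = 1.42e-06 and 1.72e-05). Genes of vesicle formation counted 2 higher and 3 lower of 20, 10.0% and 15.0% beside the 20.9% and 18.9% of all genes tested (median -0.14). With the trend removed they counted 2 higher and 5 lower (median -0.13). Tsg101, which sorts cargo into vesicles, fell from 104 and 100.3 to 32.9 and 39.9 CPM, whereas Cd9, a tetraspanin of vesicles, was not called at 361 and 361 against 299 and 315 CPM. Tsg101 had a clear gap between groups. Abundant nuclear and structural RNAs, listed with the protein-coding Lars2, the 1 that was lower, counted 5 higher and 1 lower of 8 (median 1.22), and 4 higher and 1 lower with the trend removed (median 1.22), and 3 higher and 1 lower without EPC-EV replicate 2. Neat1 and Malat1, which stay in the nucleus, rose from 49.6 and 63.6 to 358 and 349.9 CPM and from 560.2 and 663 to 2644 and 2532 CPM. Xist was too low to test.

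Promoters of the list genes were searched for short motifs in the 250 bases upstream of the start, on both strands. The sterol element TCACCCCAC was held by 1 of 15 promoters of cholesterol enzymes, Hmgcs1, and by 0.555% of the 27025 genes with a promoter, while CCAAT was held by 14 of 15 and by 37.5%. ACGTG, the core of the hypoxia element, was held by 9 of 12 hypoxia genes and 18.5% of all. GGNNTTTCC, a kB element, was held by 6 of 9 chemokine genes, 8 of 20 NF-kB genes and 5.62% of all. TGCACNC, a metal element, was held by 3 of 7 metal genes and 11.8% of all, and TGATGCAA by 4 of 18 amino acid response genes and 0.918% of all. Among the genes tested the shares were 0.647% for TCACCCCAC, 41.2% for CCAAT, 25.1% for ACGTG, 6.38% for GGNNTTTCC, 12.4% for TGCACNC and 0.668% for TGATGCAA. A match is a description of the sequence only. Windows of GRCm38.p6 RefSeq promoters follow with the match in capitals, 1 called gene for each element apart from CCAAT, which is not marked, to show the site in a gene that rose or fell. They are Hmgcs1 (chr13:119690164-119690272, plus strand), Car9 (chr4:43506958-43507025, plus strand), Mt1 (chr8:94179016-94179088, plus strand), Cxcl10 (chr5:92348989-92349097, minus strand) and Chac1 (chr2:119350999-119351106, plus strand).
Hmgcs1: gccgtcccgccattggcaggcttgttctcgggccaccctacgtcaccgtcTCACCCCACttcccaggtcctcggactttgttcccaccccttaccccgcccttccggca
Car9: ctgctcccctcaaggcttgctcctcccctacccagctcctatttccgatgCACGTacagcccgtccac
Mt1: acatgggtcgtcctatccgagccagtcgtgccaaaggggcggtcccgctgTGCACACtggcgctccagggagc
Cxcl10: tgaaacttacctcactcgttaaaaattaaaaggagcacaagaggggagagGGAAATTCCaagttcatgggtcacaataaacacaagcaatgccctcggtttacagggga
Chac1: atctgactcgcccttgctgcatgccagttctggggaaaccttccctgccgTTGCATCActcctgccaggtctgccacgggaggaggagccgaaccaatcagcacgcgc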

How the data were processed

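Read counts per gene were made by the authors with HISAT2 against GRCm38 and HTSeq 0.6.1, as deposited, and entered the tests unchanged. Deposited FPKM values were made by the authors from the same alignments and served only as an alternative. The paper names a strand option (RF) for the alignment but none for the counting step, so reads of overlapping genes may be shared. Calls came from edgeR 4.0.16 (quasi-likelihood, TMM, robust) in R 4.3.3 at a Benjamini-Hochberg adjusted p below 0.05. Alternatives used DESeq2 1.42.0, limma 3.58.1, other scalings, filters and thresholds, thinned counts, and a trend on GC content and length. The code was tested on simulated data. Python 3.11.15, scipy 1.17.1 and matplotlib 3.10.9 made lists, intervals and figures. CPM used TMM factors over 6 libraries and fold changes a fit of 4, a shift of -0.046 log2 units. Intervals and floors cover counting error only. Named genes were the largest changes by fold and by CPM among all genes and a part of the largest within each list, with further members of known role chosen after their values were seen. Members and lists were chosen with earlier results of these data known, and 3 members were dropped from the lists afterwards and are not reported here.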

Additional observations from a re-analysis of the deposited data

How the results depend on the processing

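With no library of the 2 groups left out, other settings gave a number of genes called between 4114 (all 6 libraries in the same fit) and 5684 (no filter), apart from stricter thresholds. An adjusted p below 0.01 gave 3476 calls, 1825 higher and 1651 lower. An unadjusted p below 0.05 with a log2 fold change beyond 1.5 gave 1922, 956 higher and 966 lower, and a test against a 1.5-fold change gave 2757, 1451 higher and 1306 lower. Leaving out 1 library gave 3250 to 4813 calls, 1771 to 2522 higher and 1479 to 2291 lower. With the replicate number as a replicate block, 5366 were called, 2828 higher and 2538 lower, and deviations of libraries with the same number correlated at -0.0003458 over 13544 genes.

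With the trend removed, median log2 fold changes changed sign for 11 of 59 lists, hedgehog genes (0.01 to -0.08), TGF-beta genes (0.16 to -0.21), Notch genes (0.14 to -0.37), antigen presentation (0.44 to -0.03), metallothioneins and zinc transport (0.08 to -0.04), iron handling (-0.17 to 0.23), signals to osteoclasts and hormone receptors (-0.04 to 0.23), proteoglycans (0.02 to -0.21), translation factors (-0.09 to 0.11), pericyte and smooth muscle markers (0.31 to -0.37) and Y-linked genes (-0.32 to 0.69), the median of Bcl2 relatives and caspases went from 0.01 to 0.00, and Ddx3y stood at 0.78. Chondrocyte markers had a median of 0.60 without a filter. Leaving out 1 library gave medians on both sides of 0 for 16 lists, BMP genes (-0.10 to 0.11), Notch genes (-0.18 to 0.27), interferon-stimulated genes (-0.40 to 0.03), glucocorticoid targets (-0.02 to 0.19), metallothioneins and zinc transport (-0.15 to 0.07), glutathione genes (-0.02 to 0.43), iron handling (-0.41 to 0.14), signals to osteoclasts and hormone receptors (-0.04 to 0.11), proteoglycans (-0.15 to 0.08), mitosis genes (-0.86 to 0.22), Bcl2 relatives and caspases (-0.18 to 0.34), and endothelial (-0.22 to 0.24), haematopoietic (-0.05 to 0.94), chondrocyte (-0.62 to 0.14), pericyte and smooth muscle (-0.09 to 0.65) and stromal markers (-0.04 to 0.43). Medians of TGF-beta genes (0.00 to 0.24) and translation factors (-0.08 to 0.00) reached 0, and the log2 fold change of Hif1a went from -0.65 to 0.77. The cause was not tested.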
